A study of Mus musculus with 9 samples.

Results

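The genes of the cytosolic ribosomal proteins were followed in mouse bone marrow cells that carried 1 of 3 leukemia-associated constructs. The members were all genes whose symbol in the platform annotation begins with Rpl or Rps and a number, with Rplp0, Rplp1, Rplp2 and Rpsa added and the S6 kinases and pseudogenes left out. This gave 65 genes with 96 probes, out of 19057 genes with a symbol and 45281 probes on the array. A probe was taken as detected when its detection p-value, which sets it against the negative controls of its array, was under 0.01 on at least 3 of the 9 arrays. By this filter 57 of the 65 genes and 80 of the 96 probes were measured, and 9136 genes were tested in all. The filter can only keep a gene that is bright enough in some samples, so the 57 measured genes do not stand for all members.

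The groups were MN1-TEL del DBD, MN1-TEL and MN1, with 3 arrays each. MN1 is a coactivator of transcription that transforms mouse marrow cells, and in MN1-TEL it is joined to TEL, the ETS-family transcription factor encoded by Etv6. DBD usually stands for DNA-binding domain, and the labels give no more on what this deletion removes. All groups share the same start: marrow of C57/Bl6 mice was enriched for c-kit, the receptor of stem cell factor, given a retrovirus and kept for 10 days in liquid culture. The medium held 10% FCS and 3 cytokines, SCF at 20 ng/µl and both interleukins, IL-6 and IL-3, at 10 ng/µl. The promoter that drives each construct is not named, no group without a construct was analysed here, and nothing in the labels tells whether a group's 3 replicates came from different cultures. The p-values therefore cover only the variation among these samples, and this variation can be technical.

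Ribosomal proteins coat the ribosomal RNA of the small subunit, which reads the messenger RNA, and of the large subunit, which joins the amino acids. The proteins of the P stalk, Rplp0, Rplp1 and Rplp2, recruit the elongation factors of translation. The mRNAs of nearly all of these proteins begin with a run of pyrimidines that puts their translation under the control of mTOR. In blood, inherited loss of 1 copy of certain ribosomal protein genes causes Diamond-Blackfan anaemia, a failure of red cell production, and loss of the human RPS14 gene is linked to the anaemia of the 5q- syndrome.

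Each array was background-corrected and quantile normalized, which forces all 9 arrays to the same distribution of values, and levels are given as log2 intensity. Differences are log2 values with their standard error (SE), 3 arrays against 3, and adjusted p-values come from limma, a linear model with moderated variances, with Benjamini-Hochberg adjustment across the 9136 genes tested. A gene is called when this adjusted p is under 0.05. A gene with several detected probes is represented by its brightest one. Brightness depends on the probe, so levels of different genes are not read as relative amounts of mRNA, and where brightness is set across genes it stands for the signal of the probes. MN1 and MN1-TEL del DBD replicates correlated at 0.992 to 0.994 across genes, and MN1-TEL replicates at 0.975 to 0.990, where replicate 2 was apart from the other two. Kit, the gene of c-kit itself, was detected on all 9 arrays, at 12.14 ± 0.20 in MN1-TEL del DBD, 14.38 ± 0.47 in MN1-TEL and 13.64 ± 0.14 in MN1 (SD, n = 3).

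Of the measured members, 28 belong to the large subunit, 20 to the small subunit, 3 to the stalk and 5 are paralogs, that is, second copies such as Rpl3l or Rpl22l1. The last is Rps19bp1, which the symbol rule takes in although it encodes a protein that binds Rps19 and is no part of the ribosome. Most of the members were bright. The representing probe of 33 of the 57 averaged 20000 or more raw intensity units, against 100 of the other genes tested, and 17 to 22 of the 100 brightest probes of each array were theirs. The highest raw value of any probe lay between 39668.9 and 44204 on the 9 arrays, and it belonged to Rps4x on 1 MN1-TEL del DBD array and to Rps12 on 1 MN1-TEL array. In all, 55 of the 57 were detected on all 9 arrays. The exceptions were Rpl14, detected on 4 arrays, and Rpl3l, detected on 8.

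No probe of 8 members was detected on any array. These were Rpl17, Rpl6, Rps20, Rps23 and Rpsa, the paralogs Rpl39l and Rps4l, and Rps23rg1, which arose as a retrotransposed copy of Rps23. Their 10 probes stayed between 101.4 and 201.8 raw units. The first 5 encode core proteins of every ribosome, so a probe at background says nothing about whether the gene is expressed. These genes enter no comparison.

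The first comparison asks what the fusion of TEL to MN1 changes. After quantile normalization 17 of the 57 members were lower and 2 were higher in MN1-TEL than in MN1, but without scaling between arrays 0 were lower and 12 were higher. Without scaling the median difference was 0.14 over the members and 0.68 over all genes, so genes in general moved up. The share of all genes called without scaling is not given here or below, so those counts show only how far calls depend on scaling. The 19 calls made up 33.3% of the members, and of all genes tested 54.8% were called. By direction, 29.8% of the members were lower, against 29.5% of all genes, and 3.51% were higher, against 25.3% of all genes. The shifts were small. Only Rpl3l passed 2-fold, which is 1.75% of the members, and 20.4% of all genes did so. For 32 members, 56.1%, the 3 arrays of one group lay apart from the 3 of the other, and this held for 60.8% of all genes. Before adjustment 22 members had a p under 0.05, against 60.3% of all genes. Leaving out replicate 2 of MN1 lowered the count to 11 and leaving out replicate 3 of MN1-TEL lowered it to 12, and without replicate 2 of MN1-TEL it was 22.

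**Figure D1:**
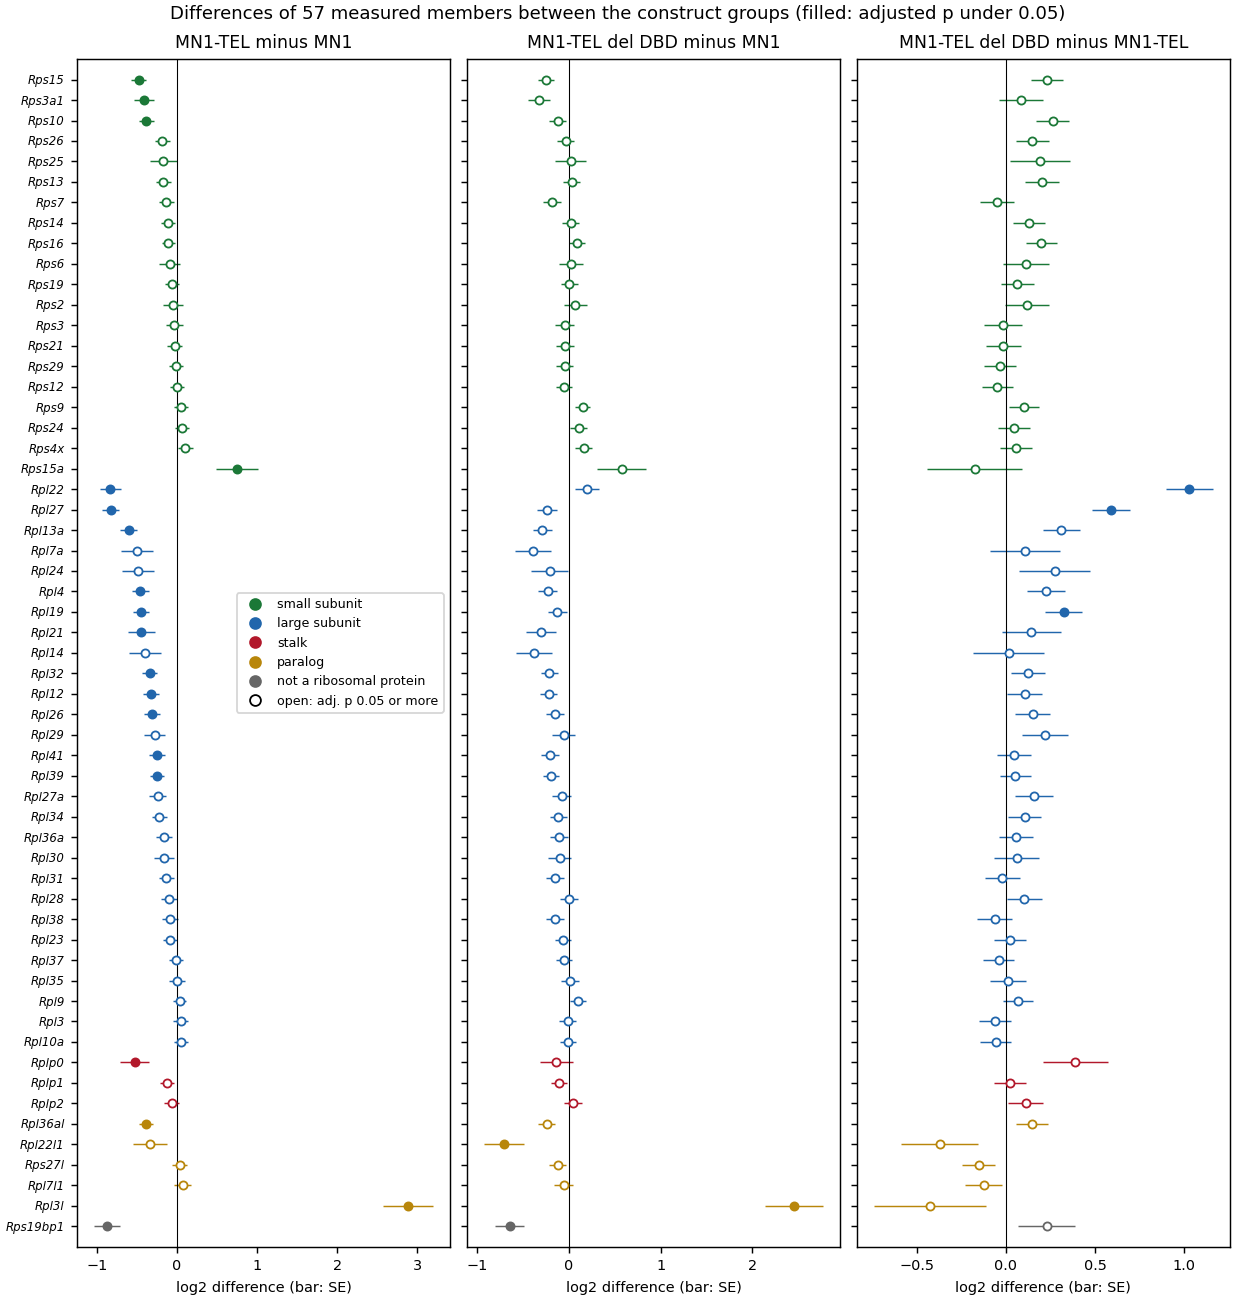
Log2 difference of each of the 57 measured members (points, with SE) in MN1-TEL minus MN1, MN1-TEL del DBD minus MN1 and MN1-TEL del DBD minus MN1-TEL, after quantile normalization. Filled points have an adjusted p under 0.05, colours give the role, and the horizontal scales differ. In the first panel 17 members are called lower and 2 higher (0 and 12 without scaling), in the second 2 lower and 1 higher, and in the third 3 higher. Without scaling the median over all genes in the first comparison is 0.68.

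The large subunit, the class with the most members, held most of the falls. Probe brightness, which went with the size of the difference as given below, was not matched between the subunits. Of the 28 measured large subunit members 11 were lower and 0 were higher in MN1-TEL after quantile normalization, where 29.5% of all genes were lower and 25.3% higher. The median difference of these 28 was -0.25, and without scaling 0 were lower and 4 were higher. The largest falls were those of Rpl22 and Rpl27. Rpl22, an RNA-binding protein of the large subunit that mouse T cell development depends on, measured 10.79, 11.28 and 11.01 in MN1-TEL, against 11.80, 11.86 and 11.92 in MN1. Every MN1-TEL array lay below every MN1 array, and the difference was -0.83 (SE 0.13, limma adjusted p = 0.000518), a 1.78-fold fall. Rpl27 measured 12.94, 12.69 and 12.62 in MN1-TEL and 13.54, 13.63 and 13.56 in MN1. The groups were again apart, with a difference of -0.83 (SE 0.11, limma adjusted p = 0.000166). Of 25 alternative settings, only the one without scaling between arrays ended either call, with the difference at -0.12 for Rpl22 and -0.25 for Rpl27.

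Rpl13a, which also serves as the mRNA-silencing subunit of the interferon-activated GAIT complex in human monocytes, measured 11.93, 12.07 and 11.87 in MN1-TEL, against 12.64, 12.47 and 12.56 in MN1. Its difference was -0.60 (SE 0.10, adjusted p = 0.000989). Rpl4, which lines the exit tunnel of the growing protein, differed by -0.46 (adjusted p = 0.00493), and Rpl19, which forms a bridge between the subunits, by -0.45 (adjusted p = 0.0045). The arrays of the groups did not overlap for any of these 3 members. Their calls ended only with the arrays scaled to the median of all probes or not scaled. Smaller called falls were measured for Rpl32 (-0.34), Rpl12 (-0.33), Rpl26 (-0.31), Rpl41 (-0.25) and Rpl39 (-0.25), and for Rpl21 (-0.45), whose groups overlapped.

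Of these smaller calls that of Rpl32 was kept with any 1 array left out, at an adjusted p of at most 0.0436. The call of Rpl12 was lost without replicate 2 of MN1, at adjusted p = 0.0611, and that of Rpl26 without replicate 2 or 3 of MN1 or replicate 3 of MN1-TEL, where the adjusted p reached 0.0996. Leaving out 1 array lost the calls of Rpl39 in 5 of 9 cases, of Rpl41 in 8 of 9 and of Rpl21 in 8 of 9, with an adjusted p of at most 0.0929, 0.162 and 0.143. The other 17 large subunit members were not called. Rpl3, which builds the entrance to the peptidyl transferase centre, measured 14.88, 14.86 and 14.89 in MN1-TEL and 14.86, 14.81 and 14.82 in MN1, a difference of 0.04 (SE 0.09, adjusted p = 0.698). Rpl36a, at -0.17 (adjusted p = 0.177), was not called either. The largest differences without a call were those of Rpl7a (-0.50, adjusted p = 0.0568) and Rpl24 (-0.48, adjusted p = 0.0662), and the 38 members without a call lay between -0.50 and 0.10.

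The start regions of Rpl22, Rpl27 and Rpl19 are shown because these 3 members were called between the fusion with and without the DBD deletion. Their calls are those of the brightest probes, and the call of Rpl19 was lost with any 1 array left out. The start region of Rpl3l is shown because Rpl3l is the member with the largest rise. TEL belongs to the ETS family, whose members bind a GGAA core, so the letters CCGGAA and the reverse complement TTCCGG are in capitals. Each stretch runs from 150 bases before the annotated start to 20 after it, on the plus strand of GRCm38.p6, and was taken from RefSeq. Rpl22, Rpl19 and Rpl3l have 2 annotated starts each, of which the first listed is shown; the other start of Rpl19 lacks these letters.
Rpl22, chr4:152325576-152325745: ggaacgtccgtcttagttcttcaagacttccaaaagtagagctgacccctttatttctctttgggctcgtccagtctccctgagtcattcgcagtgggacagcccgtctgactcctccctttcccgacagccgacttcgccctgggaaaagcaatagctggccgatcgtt
Rpl27, chr11:101442095-101442264: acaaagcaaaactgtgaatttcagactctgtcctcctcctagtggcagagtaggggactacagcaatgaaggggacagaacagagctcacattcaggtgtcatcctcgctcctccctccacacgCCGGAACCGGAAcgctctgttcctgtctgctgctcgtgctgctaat
Rpl19, chr11:98026560-98026729: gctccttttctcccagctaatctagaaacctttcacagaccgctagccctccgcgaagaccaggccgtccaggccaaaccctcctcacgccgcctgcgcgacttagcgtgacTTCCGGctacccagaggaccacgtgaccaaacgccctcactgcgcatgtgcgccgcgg
Rpl3l, chr17:24727676-24727845: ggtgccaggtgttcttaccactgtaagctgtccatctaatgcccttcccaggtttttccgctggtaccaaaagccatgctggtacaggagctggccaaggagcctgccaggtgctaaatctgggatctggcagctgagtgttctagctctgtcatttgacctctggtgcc

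The letters occur 2 times in the stretch of Rpl27, side by side, and 1 time in that of Rpl19, and neither annotated start region of Rpl22 or of Rpl3l holds them. In windows of 250 bases before to 50 after the start, RefSeq gave 64 promoters for 54 of the 65 members. CCGGAA on either strand was in 30 of these 64, 46.9%, and in 14.9% of all 32851 promoters of the same length. A run of 8 or more pyrimidines within 20 bases of the start was in 39.1% of the member promoters and in 16% of all, the E-box CACGTG in 12.5% and 7.2%, the YY1 core GATGGC or GCCATC in 20.3% and 14.1%, and TATAAA or TTTATA in 9.4% and 13.6%. Of 26 measured members with the letters, 7 were lower and 0 higher in MN1-TEL than in MN1, with a median of -0.13, and of the 23 without them 8 were lower and 2 higher, with a median of -0.17. Of all genes 29.5% were lower and 25.3% higher, and without scaling 0 of the 57 members were lower. A match of letters is a description of the sequence and does not show that a factor binds there.

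Of 20 small subunit members, 3 were lower and 1 was higher in MN1-TEL than in MN1, where 29.5% of all genes were lower and 25.3% higher. The median of these 20 was -0.08, and without scaling 0 were lower and 5 higher. Rps15, which helps to carry the small subunit out of the nucleus, measured 13.44, 13.38 and 13.52 in MN1-TEL and 13.95, 13.96 and 13.87 in MN1. The groups lay apart by -0.48 (SE 0.09, limma adjusted p = 0.0016). Rps10, a Diamond-Blackfan gene, measured 13.79, 13.78 and 13.78 in MN1-TEL, against 14.09, 14.14 and 14.29 in MN1, a difference of -0.39 (SE 0.09, adjusted p = 0.00622). Both calls ended with the arrays scaled to the median of all probes or not scaled. Rps3a1, at the exit of the mRNA channel, differed by -0.41 (adjusted p = 0.0191), a call that was lost without replicate 2 or 3 of MN1 or replicate 3 of MN1-TEL, with an adjusted p of at most 0.0644.

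The member called higher was Rps15a, which binds the ribosomal RNA of the small subunit, with 7.81, 9.0 and 8.45 in MN1-TEL and 7.46, 7.57 and 7.99 in MN1. The groups overlapped, and the call (0.75, SE 0.27, adjusted p = 0.0387) was lost in 7 of 9 cases when 1 array was left out, among them replicate 2 of MN1-TEL, with a difference of 0.45 and adjusted p = 0.0954. Rps6, the substrate of the S6 kinases, measured 14.32, 13.99 and 14.52 in MN1-TEL and 14.39, 14.34 and 14.38 in MN1. The MN1 values fell inside the MN1-TEL range, and the difference of -0.09 (SE 0.13) had an adjusted p of 0.58. Rps14, Rps19 and Rps4x differed by -0.11, -0.06 and 0.10, with adjusted p-values of 0.309, 0.592 and 0.349.

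Of the stalk, Rplp0 was called lower in MN1-TEL, with 10.66, 11.47 and 10.88 against 11.59, 11.53 and 11.47 in MN1. Replicate 2 of MN1-TEL lay next to the lowest MN1 array. The difference was -0.53 (SE 0.18, adjusted p = 0.0335). Without that replicate it was -0.76 (adjusted p = 0.000312), and in 5 of 9 cases leaving out another array lost the call, with an adjusted p of at most 0.107. Rplp1 and Rplp2, whose dimers hang from Rplp0, differed by -0.13 (adjusted p = 0.254) and -0.07 (adjusted p = 0.579).

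The paralogs held the largest change of all members. Rpl3l, which in mouse takes the place of Rpl3 in heart and skeletal muscle, measured 8.49, 9.89 and 8.87 in MN1-TEL, and 6.24, 5.90 and 6.47 in MN1. Its probe was detected on 3 of 3 MN1-TEL arrays and on 2 of 3 MN1 arrays. It passed the filter through the groups where it is high, and its raw values in MN1, 156.8 to 170.9, lie in the range of the undetected member probes, so the size of the difference depends on the background correction. The difference was 2.88 (SE 0.31, limma adjusted p = 5.36e-05), and it was called under all 24 alternatives that could measure it, at 1.78 to 3.66. The alternative that asked for detection on all 9 arrays dropped the gene. The others rest on the same MN1 values near background, so they are no separate support for the change. Its partner Rpl3, given above, was not called. RefSeq lists no gene that overlaps Rpl3l on GRCm38.p6. Which part of a transcript the probe reads is not known here.

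Rpl22l1, the paralog that Rpl22 protein represses in mouse, measured 7.99, 8.81 and 7.90 in MN1-TEL and 8.44, 8.61 and 8.67 in MN1. The groups overlapped through replicate 2 of MN1-TEL, and the difference was -0.34 (SE 0.22, adjusted p = 0.21). Without that replicate it was -0.62 (adjusted p = 0.00146). Rpl36al, the second gene for the protein of Rpl36a, measured 13.55, 13.66 and 13.69 in MN1-TEL and 14.03, 14.05 and 13.99 in MN1, a difference of -0.39 (SE 0.09, adjusted p = 0.00513). Rpl7l1, a nucleolar relative of Rpl7, and Rps27l, a p53 target in human and mouse cells, differed by 0.07 and 0.03, with adjusted p-values of 0.594 and 0.803.

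Rps19bp1 measured 8.07, 8.43 and 7.84 in MN1-TEL and 9.02, 8.87 and 9.08 in MN1. The groups lay apart by -0.88 (SE 0.16, limma adjusted p = 0.00126), the largest called fall among the genes that the rule picked. The call ended only when arrays were scaled to the median of all probes or not scaled.

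**Figure D2:**
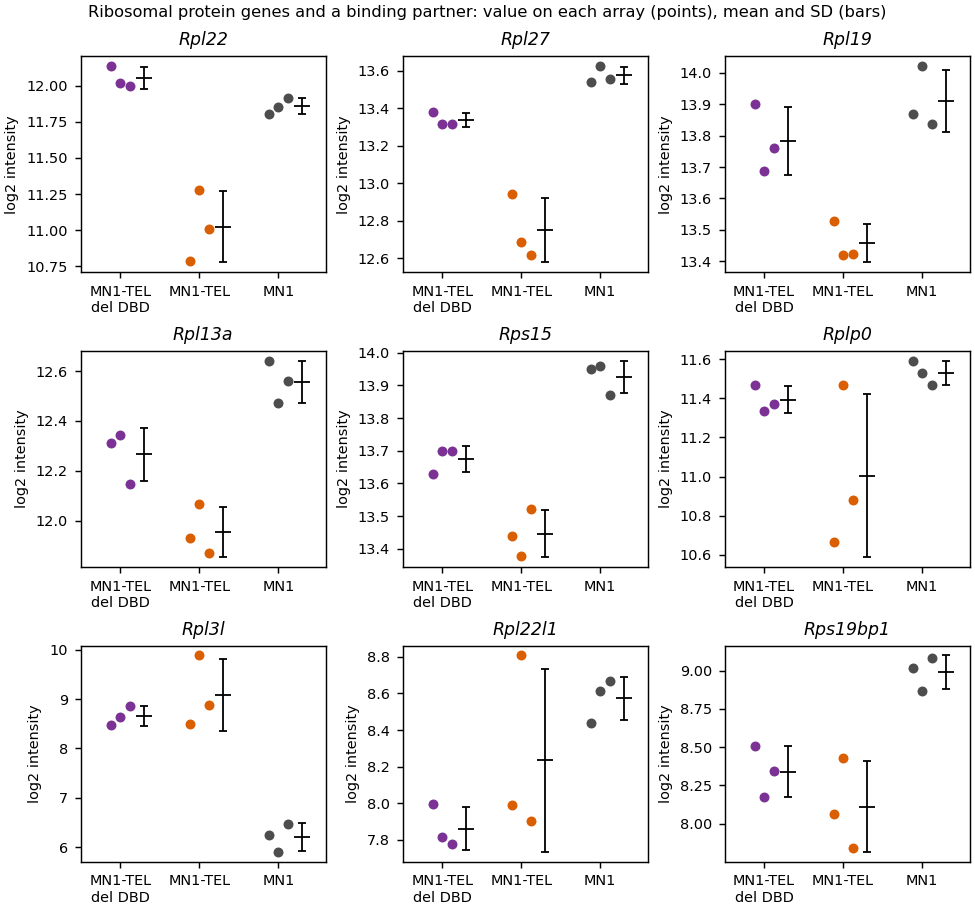
Log2 intensity on each of the 9 arrays (points) with the mean and SD of each group (bars) for 8 members and the Rps19 partner Rps19bp1, quantile normalized; vertical axes differ and do not start at 0. Rpl22 and Rpl27 are lowest on all 3 MN1-TEL arrays, and Rpl3l lies at 8.47 or above on every MN1-TEL del DBD and MN1-TEL array and at 6.47 or below on the MN1 arrays.

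The second comparison sets the fusion with the DBD deletion against MN1. Of 57 members 2 were lower and 1 was higher in MN1-TEL del DBD than in MN1, 5.26% of the members, and 37.1% of all genes were called. Without scaling, 0 were lower and 11 higher, where the median was 0.16 over the members and 0.62 over all genes. The arrays of the groups did not overlap for 25 members, 43.9%, and for 58.6% of all genes, and 10 members had a p under 0.05 before adjustment, against 46.6% of all genes. The count was 5 without replicate 1 of MN1-TEL del DBD or of MN1-TEL, and 8 without replicate 2 of MN1-TEL, which lies outside this comparison but enters the estimate of the spread. The median over the members was -0.08, and over all genes -0.04.

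Rpl3l was the gene called higher, with 8.47, 8.64 and 8.87 in MN1-TEL del DBD and the MN1 values given above. It was higher by 2.45 (SE 0.31, limma adjusted p = 0.000287), against the same MN1 values near background. This difference ran between 1.43 and 3.13 over the 24 alternatives, and each called it. They rest on those MN1 values too and are no separate support. Rpl22l1 was lower, with 8.0, 7.81 and 7.78 in MN1-TEL del DBD, below all 3 MN1 arrays. The difference was -0.71 (SE 0.22, adjusted p = 0.0283), and 5 of the 9 cases with 1 array left out lost the call, with an adjusted p of at most 0.0878. These were each MN1 replicate and replicates 2 and 3 of MN1-TEL del DBD. Rps19bp1 measured 8.50, 8.17 and 8.34 in MN1-TEL del DBD and differed from MN1 by -0.65 (SE 0.16, adjusted p = 0.011). Without scaling the differences of Rpl22l1 and Rps19bp1 were 0.09 and 0.14. None of the 28 large subunit, 20 small subunit or 3 stalk members was called in this comparison by limma, and 4, 2 and 0 of them had a p under 0.05 before adjustment. The closest were Rpl13a at -0.29 (adjusted p = 0.0532), Rps15 at -0.25 (0.0547) and Rps3a1 at -0.33 (0.0651). Rpl22 measured 12.137, 12.021 and 12.001 in MN1-TEL del DBD and lay above all 3 MN1 arrays, with a difference of 0.19 (SE 0.13, adjusted p = 0.273).

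The third comparison asks what the DBD deletion changes within the fusion. It shares the MN1-TEL arrays with the first comparison and the MN1-TEL del DBD arrays with the second, so the 3 results are not independent. Of 57 members 3 were higher and 0 lower in MN1-TEL del DBD than in MN1-TEL, 5.26% of the members against 29.5% of all genes, and 7 had a p under 0.05 before adjustment, against 40.9% of all genes. With the arrays scaled in other ways or not scaled the count was 2 higher and 0 lower. Without replicate 2 of MN1-TEL it was 7, all higher. Groups did not overlap for 16 members, 28.1%, and for 41.9% of all genes.

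The 3 were Rpl22, Rpl27 and Rpl19, all of the large subunit. Rpl22 measured 12.137, 12.021 and 12.001 in MN1-TEL del DBD, against 10.79, 11.28 and 11.01 in MN1-TEL, and the groups lay apart. The difference was 1.03 (SE 0.13, limma adjusted p = 0.0004), a 2.04-fold rise and the only one past 2-fold, a size that 9.26% of all genes reached. It was called under all 25 alternatives, at 0.86 to 1.16. Rpl27 measured 13.38, 13.32 and 13.32 in MN1-TEL del DBD, against 12.94, 12.69 and 12.62 in MN1-TEL. It was higher by 0.59 (SE 0.11, adjusted p = 0.0031), again under all 25 alternatives, at 0.42 to 0.69. Rpl19, with 13.90, 13.69 and 13.76 in MN1-TEL del DBD and 13.53, 13.42 and 13.42 in MN1-TEL, was higher by 0.32 (SE 0.10, adjusted p = 0.0398). Its call was lost under 18 of 25 alternatives, among them each of the 9 cases with 1 array left out, where the adjusted p ran between 0.0507 and 0.126. Rpl13a (0.31, adjusted p = 0.0507) and Rps10 (0.26, adjusted p = 0.0615) missed the threshold, and Rplp0 (0.39, adjusted p = 0.139) reached 0.62 with adjusted p = 0.00233 without replicate 2 of MN1-TEL.

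After quantile normalization MN1-TEL del DBD had the lowest mean of the 3 groups in 13 of 57 members, MN1-TEL in 38 and MN1 in 6, and without scaling the counts were 6, 5 and 46. The order of the groups was not counted over all genes, so it is not read as a trait of the members. MN1-TEL del DBD lay between the other two in 30 members. The difference was below 0 for 47 members in MN1-TEL against MN1, for 41 in MN1-TEL del DBD against MN1 and for 15 in MN1-TEL del DBD against MN1-TEL, where it was below 0 for 53.7%, 53.5% and 47.4% of all genes. Without scaling it was below 0 for 7, 7 and 30 members, where the median over all genes was 0.68, 0.62 and -0.07. Genes in general thus lay lowest in MN1 without scaling. The median SD between replicates over the members was 0.067 in MN1-TEL del DBD, 0.089 in MN1-TEL and 0.055 in MN1, and over all genes it was 0.132, 0.218 and 0.114. Of the members 33 lie at 20000 raw units or more, and how far the top of the scale narrows their spread was not tested.

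Of 16 genes listed for Diamond-Blackfan anaemia or the 5q- syndrome, 9 were measured. In MN1-TEL against MN1 Rpl26, Rpl27 and Rps10 were called lower and 0 were called higher (0 lower and 1 higher without scaling), where 29.5% of all genes were lower and 25.3% higher. Rps7, Rps14, Rps19, Rps24, Rps26 and Rps29 were not called, with differences between -0.18 and 0.06. These results are those of the brightest probe of each gene. A dimmer probe of Rps24 was called lower in MN1-TEL (-0.89) and in MN1-TEL del DBD (-0.63) than in MN1, as given below. Between MN1-TEL del DBD and MN1 none of the 9 was called by its brightest probe, with differences between -0.24 for Rpl27 and 0.10 for Rps24. By these probes 0 had a p under 0.05 before adjustment. In MN1-TEL del DBD against MN1-TEL Rpl27 was the only one called.

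Several probes of 1 gene did not always give the same result. In the fit over all 15870 detected probes, 21 of 80 member probes (26.2%) were lower and 3 (3.75%) were higher in MN1-TEL than in MN1. Of all probes 48.8% were called, 25.8% lower and 23.1% higher, so the share lower was near that of all probes. For MN1-TEL del DBD against MN1 the counts were 4 lower and 1 higher, where 31.5% of all probes were called, 15.9% lower and 15.7% higher. In MN1-TEL del DBD against MN1-TEL they were 0 lower and 4 higher, where 23.5% of all probes were called, 11.5% lower and 12% higher. Of 18 members with at least 2 detected probes, 0 had probes called in opposite directions. For 5 of them, Rpl27a, Rpl29, Rpl38, Rps13 and Rps24, the brightest probe was not called between MN1-TEL and MN1 although another one was.

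Rps24, a Diamond-Blackfan gene, has 3 detected probes. Its brightest probe measured 15.15, 15.12 and 15.03 in MN1-TEL and 14.99, 15.07 and 15.07 in MN1, with no call (0.06, adjusted p = 0.639 over probes). Its second probe measured 10.31, 10.76 and 10.35 in MN1-TEL, against 11.41, 11.42 and 11.26 in MN1, and these arrays lay apart by -0.89 (adjusted p = 0.000812). For MN1-TEL del DBD against MN1 the second probe differed by -0.63 (adjusted p = 0.00943). For Rpl38, needed in mouse for the translation of Hox mRNAs, the dimmer probe read 10.70, 10.63 and 10.60 in MN1-TEL del DBD, 10.14, 10.19 and 10.10 in MN1-TEL and 11.26, 11.19 and 10.95 in MN1, so that all 3 groups were apart. Its differences were -0.99 (adjusted p = 9.29e-05), -0.49 (adjusted p = 0.00919) and 0.50 (adjusted p = 0.011) in the 3 comparisons, where the bright probe gave -0.09, -0.16 and -0.06 with no call. The second probe of Rpl29, a small protein on the surface of the large subunit, gave -0.82 (adjusted p = 0.00362) in MN1-TEL against MN1 and that of Rps13 gave 0.53 (adjusted p = 0.0341). Which transcript or isoform each probe reads is not known here.

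**Figure D3:**
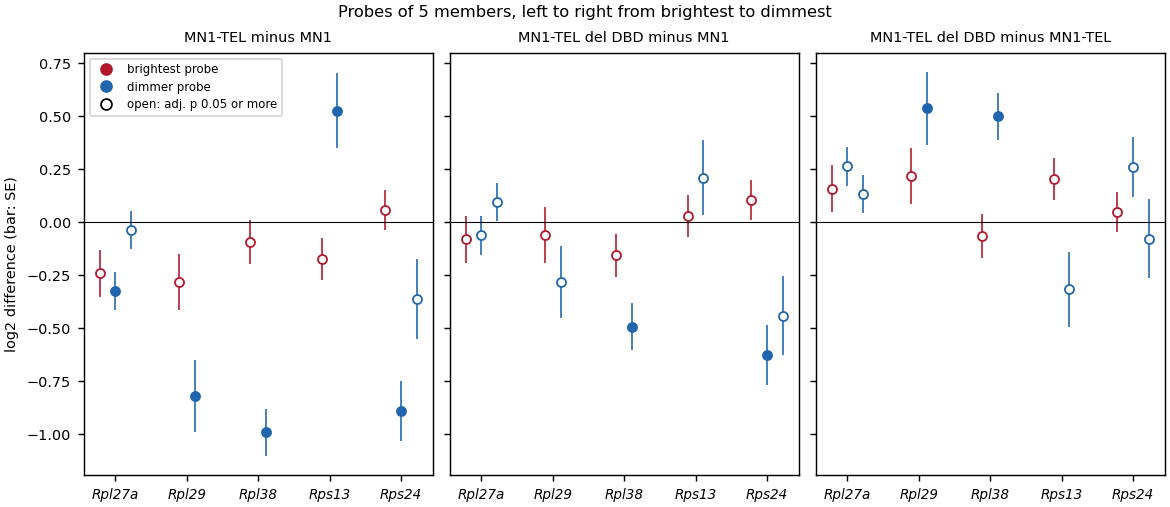
Log2 difference with SE of every detected probe of 5 members in the 3 comparisons, from the fit over 15870 probes and ordered from bright to dim. Filled points have an adjusted p under 0.05; for Rpl38 and Rps24 the brightest probe lies near 0 in each panel and a dimmer one reaches -0.99 and -0.89 in MN1-TEL minus MN1.

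The brightness of a probe went with the size of its difference. Across the 57 members the Spearman correlation between mean level and absolute difference was -0.80 for MN1-TEL against MN1, -0.63 for MN1-TEL del DBD against MN1 and -0.55 for MN1-TEL del DBD against MN1-TEL. Members share the arrays and are not independent. Of 33 members at 20000 raw units or more, 4 were lower and 0 higher in MN1-TEL than in MN1, with a median of -0.09. Of 16 members between 2000 and 20000 units 11 were lower and 0 higher, with a median of -0.40, where 761 of 2672 other genes of that brightness were lower and 708 were higher, with a median of -0.04. Without scaling the medians were 0.12 for these 16 members and 0.61 for those other genes. Among 100 other genes at 20000 units or more, 14 were lower and 24 higher. When each gene was represented by its brightest probe below 20000 units, 33 members remained and their median in MN1-TEL against MN1 was -0.39. The part of the upper end of the scale in these differences was not tested.

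**Figure D4:**
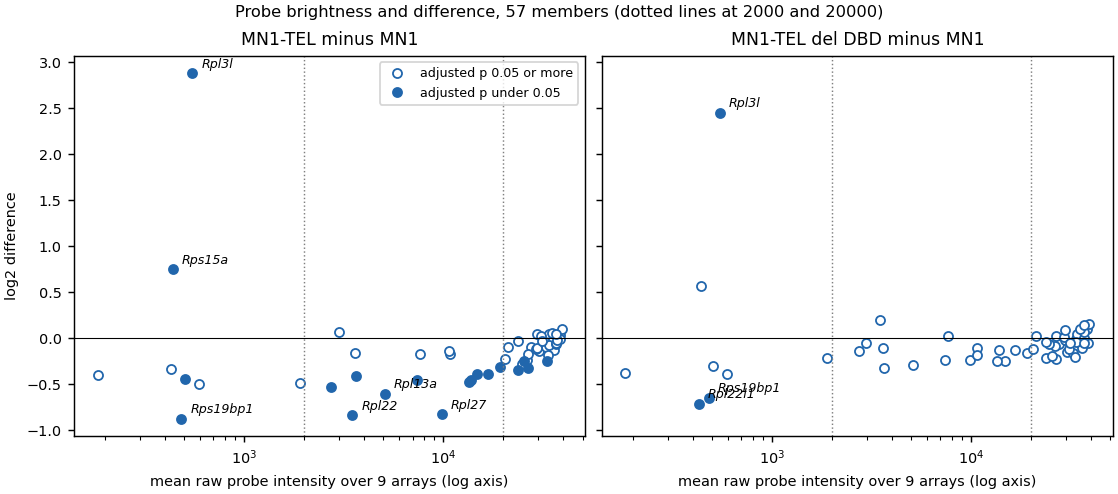
Mean raw intensity of each member's probe over 9 arrays (log axis) against its log2 difference in MN1-TEL minus MN1 and in MN1-TEL del DBD minus MN1, with filled points for an adjusted p under 0.05. The 33 members to the right of 20000 lie near 0, and 11 of the 16 between 2000 and 20000 are called lower in MN1-TEL under quantile normalization.

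The mean brightness of the arrays differed between groups, and the median of the members differed less. Mean raw intensity over all probes was 875 ± 20.8 in MN1-TEL del DBD, 943 ± 26.5 in MN1-TEL and 667 ± 30.8 in MN1 (SD, n = 3), so that MN1-TEL stood at 1.41 times and MN1-TEL del DBD at 1.31 times MN1. The median raw intensity of the members was 25460 ± 751, 25772 ± 708 and 23251 ± 1198 in the same groups, which is 1.11 times MN1 in MN1-TEL and 1.095 times MN1 in MN1-TEL del DBD. A mean and a median are unlike measures. The median over all probes, most of them undetected, was 150.2 to 152.4 in MN1-TEL del DBD, 154.9 to 155.4 in MN1-TEL and 130.6 to 133.7 in MN1. The direction of the members on their own moved with the scaling. Their median was therefore also set against that of all genes. In MN1-TEL against MN1 the members' median was -0.16 and that of all genes -0.06, a gap of -0.10. The gap was -0.20 with cyclic loess and -0.54 when arrays were shifted to the median of all probes, shifted to the median of the detected probes or not scaled. The last 3 settings differ only by a constant on each array, so their gap is equal by construction and counts as 1 result. Those 3 settings put the median of all genes at 0.40, -0.17 and 0.68 and the called members at 5 lower and 3 higher, 49 lower and 2 higher, and 0 lower and 12 higher. For MN1-TEL del DBD against MN1 the gap was -0.04, -0.12 with cyclic loess and -0.45 under the other 3. In MN1-TEL del DBD against MN1-TEL it was 0.08, 0.09 with cyclic loess and 0.06 under the other 3. These gaps are descriptions and carry no test.

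**Figure D5:**
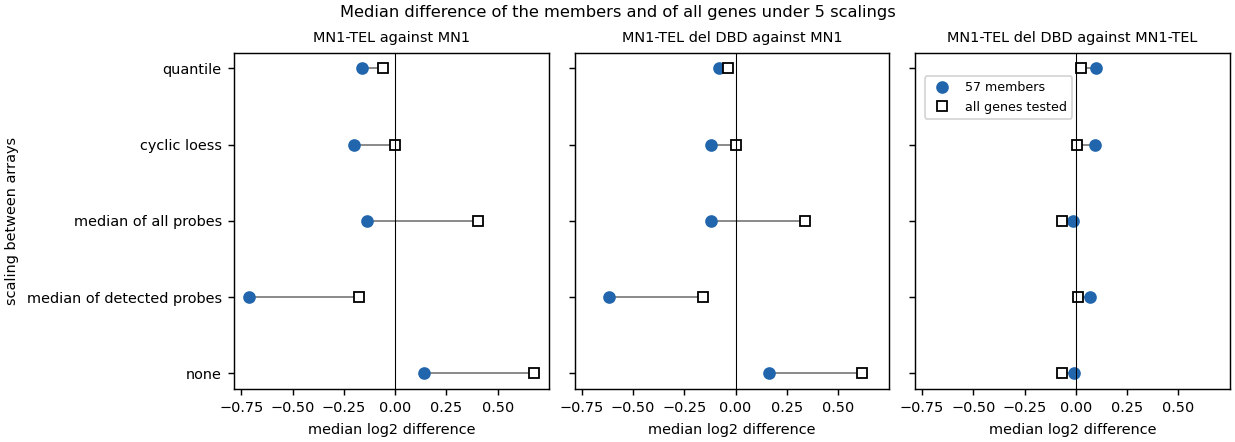
Median log2 difference of the 57 members (circles) and of all 9136 genes (squares) in the 3 comparisons under 5 ways of scaling the arrays. In the first and second panels the circle lies left of the square in every row, although the members' median is above 0 when arrays are not scaled. The lower 3 rows differ only by a constant on each array, so their gap between circle and square is equal by construction.

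Other genes of translation were counted by role, from lists written with earlier results of these data known. The counts that follow are those after quantile normalization unless stated, and shares of all genes called lower and higher were 29.5% and 25.3% in MN1-TEL against MN1. Without scaling the median over all genes in that comparison was 0.68. Of 19 measured chaperones and maturation factors of ribosomal proteins and subunits, 9 were lower and 0 higher in MN1-TEL than in MN1, among them Efl1 (-0.77, adjusted p = 0.000131) and Sbds (-0.52, adjusted p = 0.00139), which release the anti-association factor Eif6 from the large subunit. Rps19bp1 is 1 of the 9, and so is Nacc1 (-0.77), a transcriptional regulator that the list holds although it is not a ribosome factor. With arrays shifted to the median of all probes 0 of the 19 were lower and 6 higher. The gap between their median and that of all genes was -0.28 under quantile normalization and -0.27 under this shift. In MN1-TEL del DBD against MN1-TEL Efl1 was higher by 0.72 (adjusted p = 0.000533), and Rrs1, a factor of large subunit assembly, differed by -0.94 (adjusted p = 0.0229).

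Of 21 genes of translation initiation, 8 were lower and 2 higher in MN1-TEL than in MN1, and 2 lower and 11 higher without scaling. The lower ones included Eif4ebp1, the mTOR-controlled inhibitor of cap binding (-1.53, adjusted p = 8.65e-06), Eif2s2, the beta subunit of the factor that delivers the initiator tRNA (-1.01, adjusted p = 4.14e-05), and the cap-binding protein Eif4e (-0.85, adjusted p = 0.000423). In MN1-TEL del DBD against MN1-TEL Eif4ebp1 was higher by 1.09 (adjusted p = 0.000252) and Eif2s2 by 0.59 (adjusted p = 0.00282). Of 15 genes of the mTOR pathway and S6 kinases, 4 were lower and 3 higher in MN1-TEL than in MN1, and 0 lower and 10 higher without scaling. Higher were the kinase Rps6ka5, listed only by its S6 kinase symbol (1.28, adjusted p = 2.66e-05), and the mTOR inhibitors Tsc2 (0.75, adjusted p = 0.00019) and Deptor (1.72, adjusted p = 0.000403). Lower was Rptor, the scaffold of mTOR complex 1 (-0.67, adjusted p = 0.00117). Of 19 further genes with a pyrimidine start, 5 were lower and 2 higher, Nap1l1 (0.66) and Tpt1 (0.41) being the higher ones, and without scaling 0 were lower and 8 higher. Of 11 genes of RNA polymerase I, which makes the ribosomal RNA precursor, 4 were lower and 1 higher in MN1-TEL than in MN1, with a difference of -0.53 for its largest subunit Polr1a (adjusted p = 0.00159), and without scaling 0 were lower and 7 higher. Of 7 genes of ribosome quality control 2 were lower and 0 higher, among them the recycling factor Abce1 (-0.71, adjusted p = 0.00989), and without scaling 0 were lower and 5 higher.

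Marker genes of several cell types also differed between the constructs. Of all genes tested, 19.1% were called lower and 18% higher in MN1-TEL del DBD than in MN1. For MN1-TEL against MN1 these shares were 29.5% and 25.3%. Without scaling the median over all genes was 0.62 and 0.68 in these 2 comparisons. Of 12 measured neutrophil markers 11 were higher in MN1-TEL and 10 in MN1-TEL del DBD than in MN1, under quantile normalization, and their summed level was 95368 to 102520 in MN1-TEL del DBD, 129253 to 144399 in MN1-TEL and 7232 to 8397 in MN1. Of 8 monocyte and macrophage markers 7 were higher and 1 lower in MN1-TEL than in MN1, and 6 were higher and 1 lower in MN1-TEL del DBD. The marker lower in MN1-TEL was Ccr2 (-2.89, limma adjusted p = 2.11e-06). The summed level of the 8 was 18958 to 23492 in MN1-TEL del DBD, 37195 to 46613 in MN1-TEL and 4161 to 5148 in MN1. Of 8 stem and progenitor markers 0 were higher and 6 lower in MN1-TEL del DBD than in MN1 (2 higher and 4 lower without scaling), and 1 was higher and 4 lower in MN1-TEL (4 higher and 3 lower without scaling). Of 10 mast cell and basophil markers 1 was higher and 5 lower in MN1-TEL del DBD than in MN1, and 3 were higher and 2 lower in MN1-TEL. Of 5 megakaryocyte markers 1 was higher and 2 lower in MN1-TEL del DBD than in MN1, and 1 was higher and 3 lower in MN1-TEL.

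Of 5 measured erythroid markers 2 were higher and 3 lower in MN1-TEL del DBD than in MN1, and 0 were higher and 3 lower in MN1-TEL (2 higher and 3 lower without scaling). The higher ones were the adult beta globins Hbb-bs (8.61-fold, adjusted p = 0.000388) and Hbb-bt (8.29-fold, adjusted p = 0.000404). Among the 3 lower in MN1-TEL del DBD than in MN1 were Alas2 (4.81-fold, limma adjusted p = 0.000169) and Klf1 (2.28-fold, limma adjusted p = 0.00148). Hba-a1, Hbb-b2 and Slc4a1 were not detected. The summed erythroid level was 26660 to 31725 in MN1-TEL del DBD, 2121 to 7221 in MN1-TEL and 3328 to 5156 in MN1. This is a sum of linear values, in which the brightest genes weigh most, so it does not stand for the whole list. Of the stroma and endothelium list Acta2, a smooth muscle actin, was 9.59-fold higher in MN1-TEL del DBD and 16.3-fold higher in MN1-TEL than in MN1, and Pdgfrb (2.33-fold) and Pecam1 (2.01-fold) were called higher in MN1-TEL del DBD, while Col1a1, Col1a2, Col3a1, Cdh5 and Cxcl12 were not detected. Nkg7, of cytotoxic lymphocytes, was higher than in MN1 by 1.53 in MN1-TEL del DBD and by 0.92 in MN1-TEL, and 6 other T and NK genes, Cd3e among them, were not detected. Cd79b, of the B cell receptor, differed from MN1 by 1.04 in MN1-TEL del DBD and by -1.38 in MN1-TEL, and Pax5, Ebf1 and 3 further B cell genes were not detected. Whether the members' differences came with the share of any of these cells was not tested, and in bulk RNA fewer cells of a type cannot be told apart from less RNA in each cell.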

How the data were processed

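RNA of 9 samples, 3 in each of 3 groups, was hybridised to Illumina mouse BeadChips, 1 array per sample. GenomeStudio 2010.3 is named in the submitters' processing notes. The authors deposited raw intensity per probe and array, with a detection p-value beside each, per the file headers. The deposited normalized intensity values, whose scale and centring are unstated, served as an alternative, and the authors' group means were not used. Probe symbols came from the platform annotation, in which 34885 probes had 1 symbol, 18 had several and 10378 had none, and the last 2 kinds named no gene.

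Background was corrected by normexp with an offset of 16, its control moments inferred from the detection p-values, then arrays were quantile normalized and put on the log2 scale (limma 3.58.1, R 4.3.3). Probes with a detection p under 0.01 on at least 3 arrays were kept, and the brightest detected probe stood for its gene. A single linear model over all 9 arrays, with 6 residual degrees of freedom, gave two-sided tests with Benjamini-Hochberg adjustment, and its script was tested on simulated data. The number of arrays limits the precision. Alternatives covered background, scaling, filter, probe choice, model and each array left out. The members and all lists were chosen with earlier results of these data known. Named were, per comparison, up to 8 called members in each direction whose arrays did not overlap, undetected members, paralogs, stalk and anaemia genes, and up to 4 genes per list with the smallest adjusted p. Promoters are those of RefSeq on GRCm38.p6, and the positions of the probes were not used here.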

Additional observations from a re-analysis of the deposited data

How the results depend on the processing

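Over 25 alternatives, 2528 of 2805 values of single genes kept their direction and their side of the threshold, 102 lost a call, 134 gained one and 41 changed sign. The median over the members in MN1-TEL against MN1 was -0.39 with probes under 20000 raw units, -0.20 with cyclic loess, 0.14 without scaling and -0.71 with arrays scaled to the median of the detected probes, an alternative chosen after seeing the data. It lay between -0.16 and -0.12 with 1 array left out. For MN1-TEL del DBD against MN1 it was -0.14, -0.12, 0.16 and -0.61 under the same 4 settings, -0.12 with the median of all probes, and -0.0975 to -0.0675 with 1 array left out. Between MN1-TEL del DBD and MN1-TEL it was 0.15 with probes under 20000 units, 0.069 with no filter, -0.0105 without scaling, -0.0126 with the median of all probes, 0.067 with that of the detected probes, and 0.0663 to 0.102 with 1 array left out.

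The members called in MN1-TEL against MN1 numbered 12 without scaling, 8 with the median of all probes, 51 with that of the detected probes and 11 to 22 with 1 array left out. Between MN1-TEL del DBD and MN1 they numbered 16 with array weights, 5 with probes under 20000 units, 7 without background correction, 11 without scaling, 10 from the arrays of the 2 groups alone, 9 and 47 with the medians of all and of detected probes, 15 with a variance trend and 2 to 8 with 1 array left out. Those called in MN1-TEL del DBD against MN1-TEL numbered 6 with probes under 20000 units, 5 without background correction, 8 with a variance trend and 2 to 7 with 1 array left out. Of member probes, 62 were called in MN1-TEL against MN1 with the median of the detected probes and 14 to 30 with 1 array left out. The probes called in MN1-TEL del DBD against MN1 were 18 with array weights, 9 without background correction, 23 without scaling, 12 from 2 groups alone, 16 and 55 with the medians of all and of detected probes, 16 with a variance trend and 3 to 11 with 1 array left out. Of MN1-TEL del DBD against MN1-TEL they were 7 among probes detected on all 9 arrays, 9 without background correction, 2 without scaling, 2 with the median of all probes, 13 with a variance trend and 3 to 11 with 1 array left out.

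Without scaling, the sign changed in MN1-TEL against MN1 for Rpl13a (0.030), Rpl19 (0.053), Rpl21 (0.43), Rpl22l1 (0.54), Rpl26 (0.11), Rpl32 (0.039), Rpl36a (0.40), Rpl36al (0.070), Rpl39 (0.10), Rpl4 (0.14), Rplp0 (0.20), Rps10 (0.051), Rps15 (0.023), Rps3a1 (0.27), Rps6 (0.32) and Rps7 (0.43), and in MN1-TEL del DBD against MN1 for Rpl21 (0.48), Rpl22l1 (0.091), Rpl36a (0.31), Rpl7l1 (0.52) and Rps19bp1 (0.14). With the median of all probes it changed for Rpl21 in MN1-TEL against MN1 (0.15). With the median of the detected probes it changed in MN1-TEL against MN1 for Rpl3 (-0.52), Rps24 (-0.67), Rps27l (-0.61) and Rps4x (-0.67), and in MN1-TEL del DBD against MN1 for Rplp2 (-0.70), Rps13 (-0.49), Rps14 (-0.56), Rps19 (-0.76), Rps24 (-0.63), Rps4x (-0.62) and Rps6 (-0.48). The size of the move differed between genes, and the cause was not tested. Another choice of probe changed the sign of Rpl21 (0.043 with the dimmest probe), Rps13 (0.53 with the dimmest probe and with probes under 20000 units) and Rps24 (-0.89 with probes under 20000 units, -0.40 with the mean of the probes) in MN1-TEL against MN1. It also did so for Rps24 in MN1-TEL del DBD against MN1 (-0.63 with probes under 20000 units) and for Rpl38 in MN1-TEL del DBD against MN1-TEL (0.50 with the dimmest probe and with probes under 20000 units), where the cause was not tested.

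Replicate numbers were not used as pairs in the main model. Of the deviations from the group means, 1 of 9 same-number pairs and 3 of 18 different-number pairs correlated above 0.1. With 3 arrays a group this cannot exclude that samples of 1 number shared a culture or a batch. With a replicate block the counts of members called were 16 in MN1-TEL against MN1, 3 in MN1-TEL del DBD against MN1 and 2 in MN1-TEL del DBD against MN1-TEL, and those of probes 21, 5 and 3. Most members are bright, and how far their probes still respond at the top of the scale was not tested.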
